A study of Mus musculus with 6 samples.

Results

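The 9 genes of hepatic ureagenesis were examined in β-catenin-driven liver tumors: the urea cycle enzymes *Nags*, *Cps1*, *Otc*, *Ass1*, *Asl*, *Arg1* and *Arg2*, and the mitochondrial carriers *Slc25a15* and *Slc25a13*. They were chosen by name from 35683 genes with at least 1 transcript in the tables, and their length- and depth-scaled transcript abundances (TPM) were summed per gene. RNAseq was performed on 6 macroscopic tumors excised from the livers of 2 male CMRtdT mice, 3 tumors from each mouse. CMRtdT mice carry a *Ctnnb1* ex3fl/+ allele, which yields a constitutively active β-catenin once Cre deletes exon 3, the *MUP-uPA* transgene, whose product stresses hepatocytes, and a Cre-dependent tdTomato reporter at *ROSA26*. All 6 tumors share the same treatment: a high-fat diet (HFD) from 6 weeks of age, AAV8-TBG-Cre at 8 weeks, in which the TBG promoter restricts Cre to hepatocytes, and excision 6.5 months later, with food withdrawn for some hours before sacrifice. Liver without tumor was not analysed here, so every value below compares tumors with each other, and the groups are the 2 mice.

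The urea cycle turns ammonia, which is toxic to the brain, into urea for excretion, and the liver is the organ that runs it in full. NAGS makes N-acetylglutamate, the obligate activator of CPS1, and CPS1 and OTC then build carbamoyl phosphate and citrulline inside the mitochondrion. ASS1, ASL and ARG1 complete the cycle in the cytosol, while the carriers ORC1 (*Slc25a15*) and citrin (*Slc25a13*) move ornithine and citrulline, and aspartate and glutamate, across the inner mitochondrial membrane. In normal liver, most of these enzymes are higher in hepatocytes around the portal vein, whereas the glutamine synthetase gene *Glul*, a β-catenin target, marks hepatocytes around the central vein.

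A RefSeq table of GRCm38.p6 held the promoter of 5 of the 9 genes, *Ass1*, *Otc*, *Nags*, *Slc25a13* and *Slc25a15*. The 250 bases before the start of *Ass1* (chr2:31470020-31470269, + strand) and of *Otc* (chrX:10252055-10252304, + strand) were read because the levels of both genes followed each other over the tumors, and of the *Otc* window the 175 bases outside the annotated gene (chrX:10252055-10252229) are shown. Those of *Nags* (chr11:102145263-102145512, + strand) are shown for a match, in capitals, to the binding motif of TCF/LEF, the DNA-binding partners of β-catenin, as AAV-Cre activates β-catenin in these mice.
Ass1: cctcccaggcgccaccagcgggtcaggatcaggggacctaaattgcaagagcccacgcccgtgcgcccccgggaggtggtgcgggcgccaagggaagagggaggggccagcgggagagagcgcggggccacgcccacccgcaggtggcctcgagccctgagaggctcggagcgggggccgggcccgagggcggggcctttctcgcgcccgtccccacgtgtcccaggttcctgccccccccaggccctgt
Otc: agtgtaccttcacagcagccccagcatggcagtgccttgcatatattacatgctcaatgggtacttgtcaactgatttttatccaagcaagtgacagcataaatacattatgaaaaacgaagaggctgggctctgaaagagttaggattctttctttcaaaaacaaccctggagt
Nags: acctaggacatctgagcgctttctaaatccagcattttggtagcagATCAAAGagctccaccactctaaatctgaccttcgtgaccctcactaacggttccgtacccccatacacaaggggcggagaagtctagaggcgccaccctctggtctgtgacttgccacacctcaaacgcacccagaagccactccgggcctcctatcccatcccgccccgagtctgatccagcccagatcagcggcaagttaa
The *Ass1* window is rich in G and C (75.6%) and that of *Otc* is not (43.6%), compared with a median of 52.4% over 32851 promoter windows of this length. Both strands were searched for TCF/LEF (CTTTGAA or CTTTGAT), the HNF4 core (AAAGTCC), C/EBP (TTGCNNAA), an HNF1 half-site (GTTAAT), a cAMP response element half-site (TGACG), a glucocorticoid half-site (TGTTCT) and a TATA box (TATAAA). No letters of these motifs overlap in the windows shown. The *Nags* match lies 204 to 198 bases before the start on the − strand, and 7.48% of all windows hold a TCF/LEF match. The window of *Slc25a13* held a cAMP half-site 13 to 9 bases before the start, as did 17.8% of windows. HNF4 cores were found in 3.58% of windows, C/EBP motifs in 9.56%, HNF1 half-sites in 6.43%, glucocorticoid half-sites in 16.1% and TATA boxes in 12.4%. The windows of *Ass1* and *Otc* held none of the 7 motifs. A match describes letters and is not a measured binding site.

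Libraries held 19130532 to 27681766 estimated counts, and 2 features of the set bear on every result. Tumor 1 of mouse 1 stood apart: the summed TPM of 8 hepatocyte markers, led by *Alb* and *Apoa1*, was 1354 in it and 22260 to 37310 in the other 5 tumors, and the median gene whose TPM averaged 1 or more was 0.89 higher in it on the log2(TPM + 1) scale. In bulk tumors, fewer hepatocytes and less RNA per hepatocyte cannot be told apart. The closest pair was that of tumors 2 and 3 of mouse 1, with a median squared deviation of 3.03 times the sampling noise, against 14.0 to 24.2 between tumors of mouse 2. They bear separate tumor labels and were counted as 2 samples. A deviation above the sampling noise cannot show that they are independent, because that noise covers counting alone. Calls between the mice by edgeR that rest on them are also given with both averaged as 1.

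Urea cycle mRNA varied widely between tumors of the same genotype, and its composition varied with it. The summed TPM of the 9 genes was 93.0, 432 and 445 in tumors 1 to 3 of mouse 1, and 484, 330.3 and 1307 in tumors 1 to 3 of mouse 2. Tumor 3 of mouse 2 thus held more than any other tumor, and tumor 1 of mouse 1 held the least. *Ass1* was the highest of the 9 genes in 6 of 6 tumors, making up 38.3% to 60.2% of the sum. *Asl* exceeded *Slc25a15*, *Nags*, *Otc* and *Slc25a13* in 6 of 6 tumors, and *Slc25a15* exceeded *Nags* in 6 of 6. *Otc* and *Nags* had no fixed order, with *Otc* higher in 3 of 6 tumors. *Arg1* and *Cps1*, both abundant mRNAs of normal liver, lay below *Ass1*, *Asl*, *Otc*, *Slc25a15*, *Nags* and *Slc25a13* in 4 tumors. The exceptions were tumor 1 of mouse 1, where *Arg1* was exceeded by *Ass1* alone, and tumor 3 of mouse 2, where *Cps1* was exceeded by *Ass1*, *Asl* and *Otc* alone. These orders are by gene-level TPM. In tumors 1 and 2 of mouse 2 the coding transcript of *Slc25a13* was below *Arg1*, at 0.319 and 0.853 against 5.51 and 3.90 TPM. In tumor 1 of mouse 2 this transcript was also below *Cps1*, at 1.33 TPM.

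**Figure D1:**
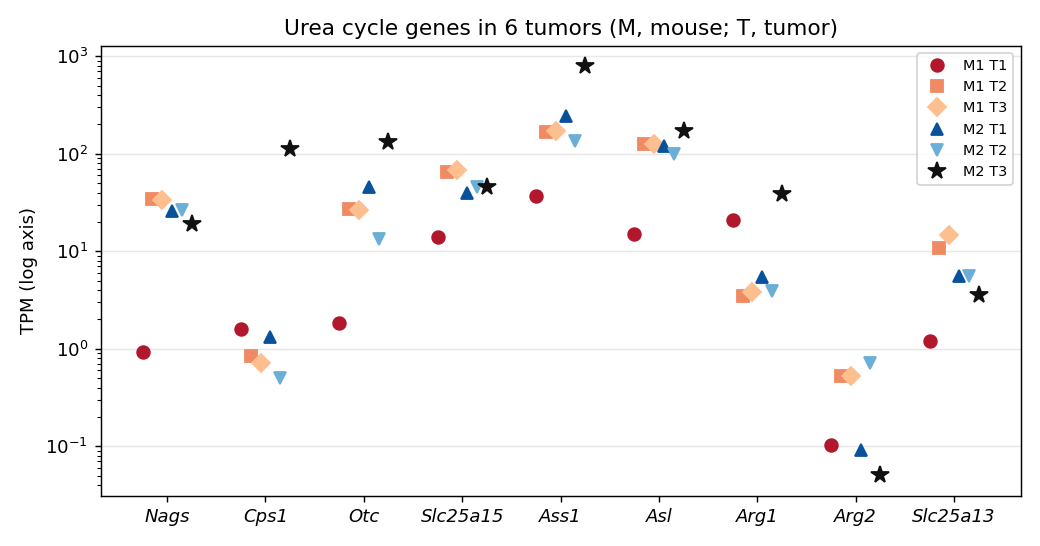
TPM of each gene (log axis) in each of the 6 tumors, 1 point per tumor, with genes ordered from the mitochondrial steps to the cytosolic steps and citrin. Tumor 3 of mouse 2 (star) lies far above the others for *Cps1*, at 112 TPM, and tumor 1 of mouse 1 (circle) is the lowest for 6 of the 9 genes.

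**Figure D2:**
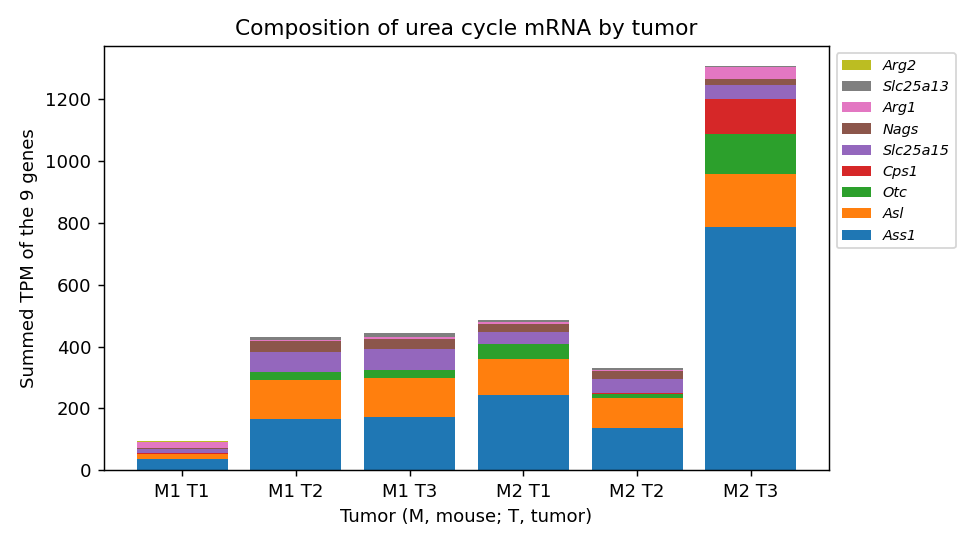
Summed TPM of the 9 genes in each tumor, stacked by gene. The shortest bar is 93.0 TPM (tumor 1 of mouse 1), the tallest 1307 TPM (tumor 3 of mouse 2), and *Ass1* is the largest block in each.

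*Cps1*, which catalyses the rate-limiting, ammonia-fixing step, was near the floor in 5 tumors and high in 1. Its TPM was 1.60, 0.849 and 0.721 in tumors 1 to 3 of mouse 1, and 1.33, 0.501 and 112 in tumors 1 to 3 of mouse 2. The estimated counts behind these were 151, 77, 82, 142, 48 and 10919, so *Cps1* was detected in every tumor. Tumor 3 of mouse 2 was 84.7-fold above the highest of tumors 2 and 3 of mouse 1 and 1 and 2 of mouse 2, whereas tumors 1 and 2 of mouse 2 overlapped the tumors of mouse 1. *Cps1* (GRCm38 chr1:67122426-67231267) had a single transcript in the index, and no other annotated gene shares its exons.

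*Nags*, the gene of the enzyme that makes the CPS1 activator, was not raised in TPM where *Cps1* was. Its TPM was 0.928, 34.0 and 33.7 in mouse 1, and 25.8, 26.2 and 18.9 in mouse 2. Tumor 1 of mouse 1 was the lowest, the other 5 tumors averaged 27.7 ± 6.30 TPM (SD, n = 5), and among these the *Cps1*-high tumor had the lowest *Nags* TPM. The median gene whose TPM averaged 1 or more was at −0.41 in that tumor on the log2(TPM + 1) scale. This is relative to the median of the 4 tumors other than it and tumor 1 of mouse 1. The rank in TPM thus cannot show that *Nags* was low relative to other genes. The coding transcript made up 50.9% to 76.9% of *Nags* TPM in those 5 tumors, the remainder being forms with no defined coding sequence. *Nags* (chr11:102145513-102149528) shares exon sequence with *Gm11586* on the opposite strand, and without a stated strand setting the reads of both cannot be told apart.

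*Otc*, the X-linked gene (chrX:10252230-10321024) of the enzyme that joins carbamoyl phosphate to ornithine, was measured in every tumor, at very different levels. TPM was 1.83, 26.9 and 26.6 in mouse 1, and 45.4, 13.5 and 131 in mouse 2, a mean of 40.9 ± 46.7 (SD, n = 6). The values of the mice overlapped, since tumor 2 of mouse 2 lay below tumors 2 and 3 of mouse 1. *Otc* exceeded *Cps1* by 26.9-fold to 36.8-fold in 4 tumors, but by only 1.17-fold in tumor 3 of mouse 2 and 1.14-fold in tumor 1 of mouse 1.

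In the cytosol, *Ass1* (chr2:31470270-31520670), which condenses citrulline with aspartate, had 37.2, 165 and 171 TPM in mouse 1, and 242, 136 and 787 TPM in mouse 2. The mean was 256 ± 268 TPM (SD, n = 6), and tumor 3 of mouse 2 was 4.67-fold above the median of the 4 tumors left when tumor 1 of mouse 1 was set aside as well. *Asl* (chr5:130011258-130024381), which splits argininosuccinate into arginine and fumarate, was the steadiest of the 9 outside tumor 1 of mouse 1. Its TPM was 15.1, 125 and 126 in mouse 1, and 119, 98.2 and 169.8 in mouse 2, or 128 ± 26.1 (SD, n = 5) without the first of these. The ratio of *Ass1* to *Asl* was therefore 1.32 to 2.04 in 4 tumors, 2.46 in tumor 1 of mouse 1 and 4.63 in tumor 3 of mouse 2. *Asl* shares exon sequence with the opposite-strand gene *Gm73169*.

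*Arg1*, the hepatic arginase that releases urea, was the only gene besides *Cps1* that was not reduced in tumor 1 of mouse 1 relative to the median of the other tumors. Its TPM was 20.9, 3.47 and 3.83 in mouse 1, and 5.51, 3.90 and 38.6 in mouse 2. The highest values thus came from the tumor with the lowest hepatocyte marker sum and from the *Cps1*-high tumor, and the remaining 4 lay within a narrow band. In those 4 tumors *Asl* was 21.6-fold to 36.1-fold above *Arg1*, compared with 4.40-fold in tumor 3 of mouse 2, and in tumor 1 of mouse 1 *Asl* was below *Arg1*, at 0.723 times its level. Macrophages can also express *Arg1*. The summed TPM of 8 macrophage markers, led by *Lyz2* and *C1qb*, was 81.4 and 151 in the 2 tumors with high *Arg1*, and 208 to 556 in the other 4. The part of macrophages in the *Arg1* values was not tested. *Arg1* (chr10:24915207-24927470) overlaps the opposite-strand gene *Gm36172*. *Arg2* (chr12:79130788-79156301), the mitochondrial arginase of mostly extrahepatic tissues, was barely measured: 2, 10, 12, 2, 14 and 1 estimated counts, of which 3 are under the floor of 3 counts used here, at 0.0505 to 0.717 TPM. It too has opposite-strand partners in the annotation, *Gm48780* and *Vti1b*.

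The ornithine carrier *Slc25a15* (chr8:22375550-22398621) was, like *Nags*, not raised in TPM in the *Cps1*-high tumor. It had 14.1, 64.5 and 67.8 TPM in mouse 1 and 39.5, 45.4 and 45.5 TPM in mouse 2. Because the median gene was at −0.41 in the *Cps1*-high tumor, as given for *Nags*, TPM cannot show whether *Slc25a15* was raised relative to other genes. The 3 tumors of mouse 2 lay below tumors 2 and 3 of mouse 1, an order that 57.4% of all genes had in TPM. Mitochondrial transcripts took 27.2% to 37.3% of TPM in mouse 2 and 20.2% to 20.7% in these 2 tumors, and by edgeR without tumor 1 of mouse 1 the log2 fold change of *Slc25a15* was −0.05. The part of mitochondrial transcripts in this order was not tested. The mean was 52.6 ± 12.7 TPM (SD, n = 5) without tumor 1 of mouse 1. Because *Otc* varied more than its carrier, *Slc25a15* was 0.347 times *Otc* in tumor 3 of mouse 2 and up to 7.75 times *Otc* in tumor 1 of mouse 1. *Slc25a15* overlaps *1810012K16Rik* on the opposite strand.

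*Slc25a13* (chr6:6041218-6217304) encodes citrin, the liver aspartate-glutamate carrier that exports the aspartate used by ASS1. Gene-level TPM was 1.20, 10.9 and 14.6 in mouse 1, and 5.54, 5.58 and 3.54 in mouse 2. The transcripts behind these values set tumors 2 and 3 of mouse 1 apart from the other tumors. The coding transcript of 3121 bases had 378 and 431 estimated counts in tumors 2 and 3 of mouse 1, but 21, 50 and 59 in mouse 2 and 0 in tumor 1 of mouse 1, a count that allows up to 3. In TPM this was 6.94 and 6.22 against 0.319 to 0.993. A form of 631 bases with no defined coding sequence had 17 to 63 counts in the other 5 tumors and, being short, carried 33.9% to 91.0% of their *Slc25a13* TPM. The 3 mouse 2 tumors therefore differed more from tumors 2 and 3 of mouse 1 in the coding form than the gene-level TPM shows. The paralog *Slc25a12* (aralar), the carrier of non-hepatic tissues, had its highest level, 21.3 TPM, in tumor 1 of mouse 1, where 62.6% of all genes peaked. Elsewhere it had 4.85 to 8.25 TPM. By gene-level TPM it was at 17.7 times *Slc25a13* in the former, on 8 *Slc25a13* counts, and at 0.485 to 2.33 times in the others. Beside the coding form of *Slc25a13* alone, gene-level *Slc25a12* was higher in mouse 2 as well, at 4.85 to 8.25 TPM against 0.319 to 0.993. In tumors 2 and 3 of mouse 1 it was at 7.91 and 7.06 TPM against 6.94 and 6.22. The coding part of *Slc25a12* was not separated, so a whole gene is set here against a single transcript, and the coding forms cannot be ranked.

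**Figure D3:**
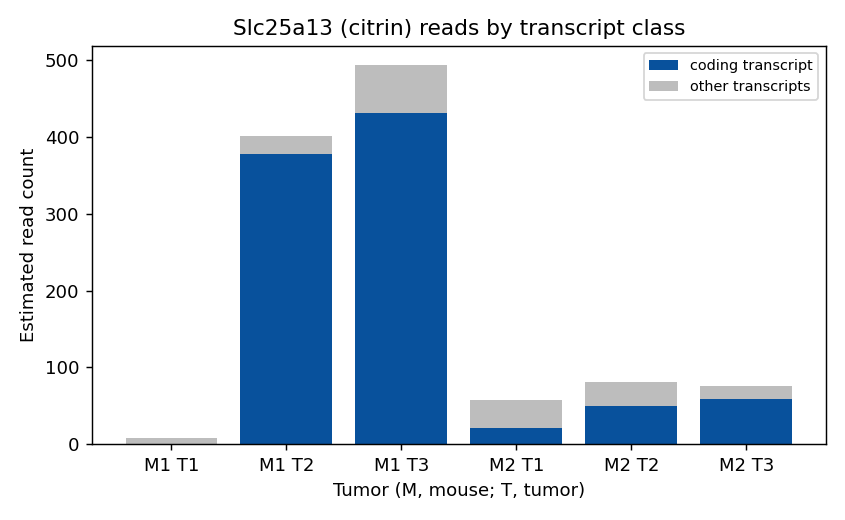
Estimated read counts of *Slc25a13* in each tumor, split into the coding transcript (dark) and all other transcripts (grey). Its coding counts are 378 and 431 in the second and the third tumor of mouse 1, with no more than 59 anywhere else.

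The positions of the 9 genes were set beside those of all genes. Of the 9 genes, 6 were lowest in tumor 1 of mouse 1, as were 22.2% of the 12518 genes whose TPM averaged 1 or more. In tumor 3 of mouse 2, 5 of the 9 (*Cps1*, *Otc*, *Ass1*, *Asl* and *Arg1*) were at their highest, against 4.67% of those genes. A level at least 4-fold above the median of the 4 remaining tumors was reached there by *Cps1*, *Otc*, *Ass1* and *Arg1*, while 0.863% of genes reached it. A lead of at least 4-fold over the next tumor was held by *Cps1* alone of the 9, and by 0.128% of genes. The median of the 9 genes in this tumor was 0.47 above the median of the same 4 tumors on the log2(TPM + 1) scale, compared with −0.41 for all genes. By Dixon's ratio a single tumor stood apart from the other 5 in *Cps1*, *Asl*, *Nags* and *Slc25a15*, 4 of the 9, and in 38.8% of genes. These counts describe single tumors and carry no test.

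The zonal markers of tumor 3 of mouse 2 were mixed. Its hepatocyte markers summed to 34300 TPM, within the range of the others. Of 10 periportal markers, 5 were at or above 1 TPM, led by *Pck1* (218 TPM) and *Hsd17b13* (113 TPM), whereas *Hal* was at 0.11, *Cyp2f2* at 0.21, *Gls2* at 0.32, *Sds* at 0.04 and *Etnppl* at 0.41 TPM. The list summed to 359.5 TPM, against 91.9 to 179.6 TPM in the 4 tumors that remain, and it was 26.0 TPM in the first tumor of mouse 1. The 10 pericentral markers, led by *Cyp2e1* and *Glul*, reached a sum of 12850 TPM there, below the 14170 to 23650 TPM of the other 4. The list was not lower throughout, as *Lect2* (1040.0 TPM) and *Slc1a2* (449 TPM) were at their highest in that tumor. Relative to the geometric mean of the hepatocyte markers set to 1000, *Cps1* scored 49.4 here, 17.4 in the tumor that stood apart and 0.301 to 0.755 in the rest. *Ass1* on the same scale was at 346 and 403 in these 2 tumors and at 68.3 to 138 in the rest, while *Nags* was at 8.33, 10.1 and 14.0 to 16.4, respectively. The divisor of this scale was itself far lower for the tumor that stood apart, at 92.2 TPM, whereas the others had 1597 to 2424 TPM. Any gene that fell less than these markers scores higher there by construction. The high *Ass1* score of that tumor therefore cannot show whether its hepatocytes held less *Ass1*. The part of hepatocyte content in the low *Ass1* TPM of that tumor was not tested.

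Among the markers of other cells, tumor 1 of mouse 1 had the lowest sums for neutrophils (1.74 against 10.7 to 26.2 TPM over 5 markers, led by *S100a9* and *S100a8*), endothelium (10.4 against 28.1 to 67.1 TPM over 6, led by *Clec4g* and *Pecam1*) and B cells (1.14 against 2.29 to 5.55 TPM over 4, led by *Cd79b* and *Cd79a*). Stellate cell or fibroblast markers (6, led by *Dcn* and *Reln*) summed to 21.7 to 79.7 TPM over the 6 tumors, T cell markers (5, led by *Lck* and *Trac*) to 1.40 to 4.42 and erythroid markers (4, led by *Hbb-bs* and *Hba-a2*) to 829.6 to 8415 TPM. Cholangiocyte markers (6, led by *Spp1* and *Sox9*) summed to 4.67 to 44.2 TPM. Tumor 1 of mouse 1 had the highest cholangiocyte sum, and 4 of the 6 markers peaked there, as did 62.6% of the genes whose TPM averaged 1 or more. Tumor 3 of mouse 2 had the highest neutrophil sum and the lowest cholangiocyte sum. Their part in the urea cycle values was not tested.

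Mouse 2 was compared with mouse 1 to ask whether the animals differed beyond the spread between tumors of 1 animal. No gene passed edgeR's quasi-likelihood test at an adjusted p of 0.05 among 13268 tested (0% in either direction, 1449 at an unadjusted p under 0.05), and DESeq2 called 202 (1% higher and 0.52% lower), none of them a urea cycle gene, though it gave no p for *Cps1*. The 8 urea cycle genes that passed the count filter, all but *Arg2*, had a median log2 fold change of 1.45, with 7 of 8 above 0, against −0.04 over all genes tested. Without tumor 3 of mouse 2 this median was 0.58, with 6 of 8 above 0. *Cps1* had the largest log2 fold change of the 8, 6.14 (SE 2.25, edgeR adjusted p = 0.422), and it was 0.54 without tumor 3 of mouse 2, the tumor that carries it. The log2 fold changes were 2.41 (SE 1.31) for *Otc*, 2.35 (SE 1.06) for *Ass1*, 1.83 (SE 1.13) for *Arg1* and 1.07 (SE 0.939) for *Asl*, with edgeR adjusted p of 0.503 to 0.709. Without tumor 3 of mouse 2 they were 1.13, 1.12, −0.14 and 0.62. *Nags* and *Slc25a15* were at 0.60 (SE 1.15) and 0.44 (SE 0.705), and *Slc25a13* was at −1.48 (SE 1.25), with edgeR adjusted p of 0.700 to 0.857.

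Without tumor 1 of mouse 1, *Slc25a13* was lower in mouse 2. Its log2 fold change was −2.06 (SE 0.254, edgeR adjusted p = 0.0364), and it was the only urea cycle gene among 112 genes called lower (0.837% of 13374) and 56 called higher (0.419%). The call was also made by limma-voom (−2.10, adjusted p = 0.0138), which called 1.32% of genes higher and 2.24% lower, and by DESeq2 (−2.07, adjusted p = 4.25e-09), which called 5.85% and 4.39%. Scaling by library size alone kept it as well (−2.33, edgeR adjusted p = 0.0266), with 0.15% and 0.98% called. It rests on counting tumors 2 and 3 of mouse 1 as 2 samples: with both averaged as 1, the log2 fold change was −2.06 with an edgeR adjusted p of 0.456, and 0.00728% of genes were called higher and 0% lower. All 3 tumors of mouse 2 lay below both of these tumors in *Slc25a13*, *Nags* and *Slc25a15* TPM, as was the case for 57.4% of genes. In the fit without tumor 1 of mouse 1, and with tumors 2 and 3 kept apart, *Arg1* was at 2.79, *Cps1* at 6.32, and *Ass1* and *Otc* at 1.86 each, with edgeR adjusted p of 0.275 to 0.361.

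**Figure D4:**
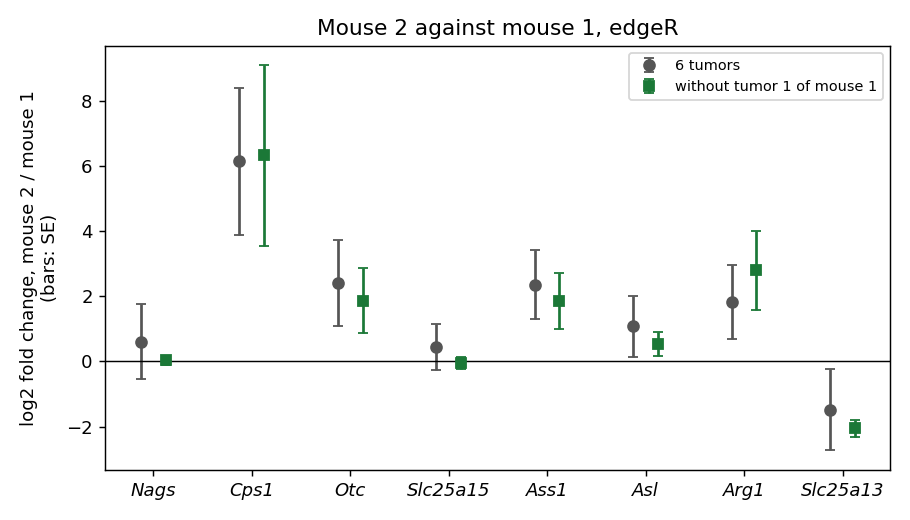
Log2 fold change of mouse 2 over mouse 1 (edgeR, bars are SE) for 8 urea cycle genes, over 6 tumors (circles) and without tumor 1 of mouse 1 (squares). *Cps1* has the largest value and the widest bars, and *Slc25a13* is the only gene with both values below −1.

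The genes that feed and drain the cycle were followed as a list of 26, of which 25 were tested. None was called between the mice by edgeR over the 6 tumors, nor was any of the 13268 genes tested. The list was dominated by the glutamine side. *Glul*, which fixes ammonia into glutamine, was at 1085, 8365 and 8760 TPM in mouse 1, and 4356, 4358 and 4197 TPM in mouse 2, a mean of 5187 ± 2900 (SD, n = 6). *Oat*, which converts ornithine to glutamate semialdehyde and is itself pericentral, averaged 1565 ± 727 TPM, far above any of the 9 genes. Cytosolic malate dehydrogenase *Mdh1* averaged 282 ± 72.9 and the aquaglyceroporin *Aqp9*, which passes urea, 259.6 ± 151 TPM. Both *Glul* and *Oat* were lowest in tumor 1 of mouse 1, as were 17 of the 26 genes, beside 22.2% of all genes. In tumor 3 of mouse 2, where 4.67% of all genes were highest, 3 of the 26 peaked: *Fh1* (138 TPM), which hydrates the fumarate released by ASL, the cytosolic aminotransferase *Got1* (48.4 TPM), and *Agmat* (102 TPM). The glutaminase *Gls2*, a supplier of ammonia in periportal liver, was highest in tumor 1 of mouse 1, as were 62.6% of all genes. It was at 3.42 TPM there, against 0.317 to 0.604 TPM elsewhere. *Azin1*, an antizyme inhibitor, and *Fh1* had the smallest p after *Slc14a1*, with log2 fold changes of 0.55 (edgeR adjusted p = 0.586) and 0.81 (edgeR adjusted p = 0.594).

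The urea transporter *Slc14a1* had the smallest p of the linked genes. Its TPM was 255, 6.11 and 5.44 in mouse 1, and 0.0539, 0.142 and 0 in mouse 2. Each tumor of mouse 1 was above each of mouse 2, though how many of all genes separate in this way was not counted. The log2 fold change was −9.42 (edgeR adjusted p = 0.412), and −5.92 (SE 0.713, adjusted p = 0.0348) without tumor 1 of mouse 1, the only call among the linked genes in that fit. With tumors 2 and 3 of mouse 1 averaged as 1 as well, the call was lost (−5.93, edgeR adjusted p = 0.399). Its level in tumors 2 and 3 was 2.39% and 2.13% of that in tumor 1 of the same mouse. The 47 genes with at least 100 TPM in tumor 1 and under 0.5 TPM in each tumor of mouse 2 had a median of 1.90% and 1.87% of their tumor 1 level in tumors 2 and 3, with quartiles of 1.42% to 2.29% and 1.38% to 2.48%. Whether *Slc14a1* reads in those 2 tumors came from material of tumor 1 was not tested. *Slc25a13* was itself lower in tumor 1 (1.20 TPM) than in tumors 2 and 3.

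Of 15 genes for transcription factors and receptors active in liver metabolism, none was called between the mice by edgeR over the 6 tumors. The same held for all 13268 genes tested. *Hnf4a*, *Cebpa*, the glucagon receptor gene *Gcgr* and *Cebpb* had the highest means, at 113 ± 64.2, 103 ± 65.2, 89.7 ± 45.2 and 89.5 ± 49.7 TPM (SD, n = 6). *Cebpb*, a transcription factor of the fasting and acute phase responses, was highest in tumor 3 of mouse 2, as 1 of the 15 beside 4.67% of all genes, with 7.07, 79.9 and 88.0 TPM in mouse 1, and 104, 96.3 and 162 TPM in mouse 2. All 3 values of mouse 2 exceeded all 3 of mouse 1 (log2 fold change 1.78, edgeR adjusted p = 0.588). The share of all genes with such a separation was not counted. Without tumor 1 of mouse 1, DESeq2 called *Cebpb* higher in mouse 2 (1.22, adjusted p = 0.0168), as it did 5.85% of all genes tested. By contrast, edgeR (1.23, adjusted p = 0.156) and limma-voom (1.16, adjusted p = 0.130) did not. The DESeq2 call counts tumors 2 and 3 of mouse 1 as 2 samples, and DESeq2 was not run with both averaged as 1. *Hnf4a* was at 108 TPM in tumor 3 of mouse 2, beside 99.6 to 182 TPM in the 4 tumors other than it and tumor 1 of mouse 1. *Glis2* (16.7 TPM) and *Creb1* (12.4 TPM) peaked in tumor 1 of mouse 1, as did 62.6% of all genes, at 22.9-fold and 4.08-fold over the next tumor. Their between-mouse log2 fold changes were −3.72 (edgeR adjusted p = 0.423) and −0.59 (edgeR adjusted p = 0.699).

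Genes with profiles like those of *Cps1* and *Ass1* were sought by the root mean square difference of log2(TPM + 1), centred on each gene's mean, over the 6 tumors. The 5 nearest to *Cps1* were *Sult2a8* (difference 0.956), *Upp2* (0.994), *Urad* (1.02), the processed pseudogene *Apoo-ps* (1.14) and *Ntrk2* (1.19). *Sult2a8*, a sulfotransferase of mouse liver, reached 169.6 TPM in the *Cps1*-high tumor and 3.91 to 12.7 TPM elsewhere. *Upp2*, a liver uridine phosphorylase, reached 338 TPM there and 8.51 to 50.1 TPM elsewhere. *Urad*, an enzyme of urate breakdown, was at 16.5 TPM there and at most 1.20 TPM elsewhere. *Apoo-ps* was at 6.34 TPM there, on 39 estimated counts, and at 0 elsewhere, and *Ntrk2* at 5.90 TPM there and at most 0.11 elsewhere. *Urad*, *Apoo-ps* and *Ntrk2* reached the mean of 1 TPM needed to enter the search only through the *Cps1*-high tumor. Their likeness to *Cps1* thus follows in part from this filter. On the log2(TPM + 1) scale none of the 5 rose as far there as *Cps1*, and 2 of the 5 stayed among the nearest when the TPM had to average 5 or more. Nearest to *Ass1* were *S100a1* (0.419), *Glod5* (0.423), *Clec2h* (0.467), *Otc* (0.479) and *Cd302* (0.503). *Otc* was the only other urea cycle gene among these neighbours. The neighbours of *Ass1* depended on the scale, as 1 of the 5 stayed with a pseudocount of 0.1 and 3 of the 5 when the TPM had to average 5 or more, and 6 tumors are the whole basis of the likeness.

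**Figure D5:**
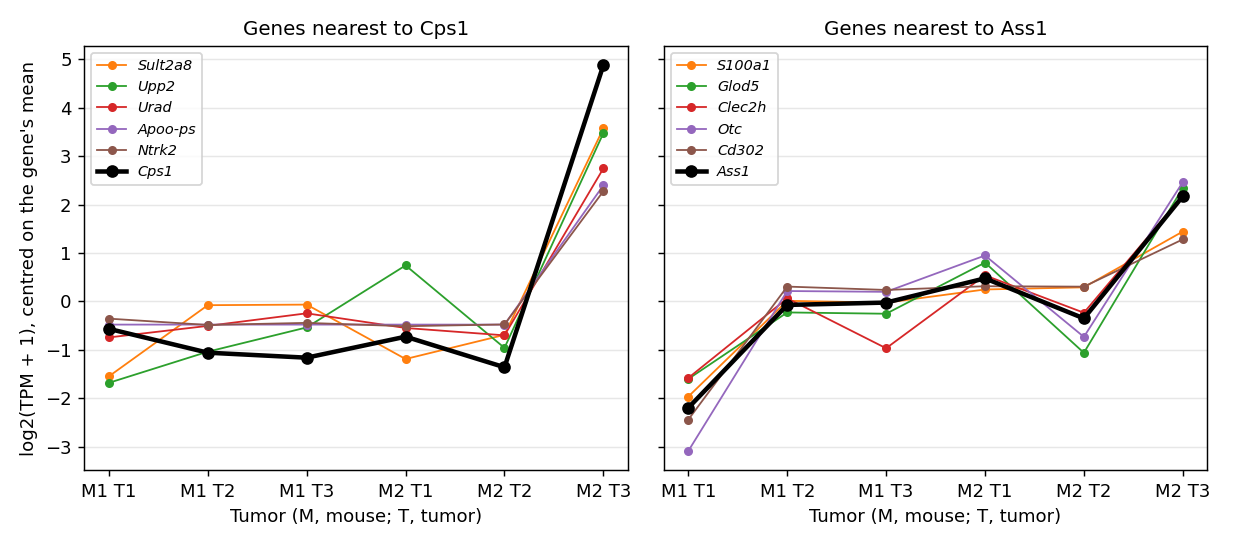
Profiles over the 6 tumors of *Cps1* (left, black) and *Ass1* (right, black) with the 5 genes nearest to each, as log2(TPM + 1) centred on each gene's mean. *Cps1* and its neighbours, chosen for this profile, are highest in tumor 3 of mouse 2 (*Upp2* is also above its mean in tumor 1 of mouse 2), and *Ass1* and its neighbours are lowest in tumor 1 of mouse 1.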

How the data were processed

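Libraries of poly(A) RNA from 6 tumors, 3 from each of 2 mice, were sequenced as paired reads, and no sample was left out. Estimated counts per transcript, not normalized, and TPM, scaled for effective length and depth, were deposited by the authors in the layout of Salmon. The reporting summary lists Salmon 1.5.1, while the submitters' processing notes name the build GRCm38 with BWA and Picard. The strand setting is not stated in what was used here.

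Names came from GENCODE vM39 by transcript ID without its version (114813 matched, and 1733 with 0.373% to 0.680% of counts did not), and transcripts were summed per gene. Positions and promoters came from RefSeq tables of GRCm38.p6. Totals were 19130532 to 27681766 estimated counts, and a count of 0 allows up to 3, which covers counting error only. The genes and lists were chosen with earlier results of these data known. From the lists, the 4 genes of highest mean, the 3 of smallest p and those at least 4-fold over the next tumor were named, with the 2 highest markers per cell type and the 5 nearest genes to *Cps1* and *Ass1*.

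Levels are TPM with SD over tumors. Gene counts were rounded and the 2 mice were tested against each other in edgeR 4.0.16 by a two-sided quasi-likelihood test with TMM factors and filterByExpr, adjusted after Benjamini-Hochberg over all genes tested, with DESeq2 1.42.0 and limma-voom (limma 3.58.1) as alternatives, after a test on simulated counts. This compares 2 animals, and the p-values measure only the spread between tumors of 1 animal, 3 against 3. Other alternatives were the scaling, the count filter, each tumor left out, the tumor number as a block, another pseudocount and another TPM minimum. Fits without tumor 1 of mouse 1 by other tools or scalings, and fits with tumors 2 and 3 of mouse 1 averaged, were added after seeing the data.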

Additional observations from a re-analysis of the deposited data

Results flagged for a closer look

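A tumor stood apart from the other 5 in 4 of the 9 genes by Dixon's ratio on log2(TPM + 1), which flags about 1 in 20 groups by chance. By this measure, 38.8% of the genes whose TPM averaged 1 or more had such a tumor. *Cps1* was far higher in tumor 3 of mouse 2 than in any other tumor (112 TPM, ratio 0.873). *Asl* was far lower in tumor 1 of mouse 1 (15.1 TPM, ratio 0.770), as were *Nags* (0.928 TPM, ratio 0.806) and *Slc25a15* (14.1 TPM, ratio 0.650).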

How the results depend on the processing

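Over the 6 tumors, edgeR called no gene under any scaling tried, without the count filter or with the tumor number as a replicate block (800 genes at an unadjusted p under 0.05 with the block), limma-voom called 0 (708 unadjusted) and DESeq2 called 202. The tumor numbers do not pair the samples, as same-numbered tumors correlated by −0.043 to 0.049 in their deviations. Leaving out 1 tumor gave 0 to 168 genes called, 0 to 1 urea cycle genes and 0 to 1 linked genes or regulators, the highest each time without tumor 1 of mouse 1. Without that tumor, limma-voom called 477 genes, DESeq2 1369, library size scaling 151, and edgeR 1 with tumors 2 and 3 of mouse 1 averaged. Urea cycle genes called were 1, 1, 1 and 0, and linked genes or regulators 1, 2, 1 and 0, respectively. Scaling by library size alone moved the median log2 fold change of all genes from −0.04 to −0.55, and in the fit without tumor 1 of mouse 1 it gave *Nags* −0.22 and *Slc25a15* −0.32. The sign also turned for *Slc25a15* in other fits without that tumor (−0.05 by edgeR and DESeq2, −0.06 by limma-voom and with averaging), for *Arg1* without tumor 3 of mouse 2 (−0.14, range −0.14 to 2.79 over tumors left out) and for *Slc25a13* by limma-voom over 6 tumors (0.36). *Slc25a15* ran from −0.05 to 0.79 and *Cps1* from 0.54 to 6.74 when 1 tumor was left out. The cause of these turns was not tested. DESeq2 gave no p for *Cps1*, with or without tumor 1 of mouse 1. Of 134 alternative fold changes, 122 kept their sign and call. Of the 5 genes nearest to *Cps1*, 5 remained with a pseudocount of 0.1 and 2 when the TPM had to average 5 or more, and of those nearest to *Ass1*, 1 and 3. The summed TPM stayed within 1 SD, from 356.8 to 599.5 over tumors left out. Depth limits *Arg2* most, at 1 to 14 counts.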
